A study of Homo sapiens with 6 samples.

Results

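Transcripts of the BCL2 family, the proteins that decide whether the outer mitochondrial membrane is opened during apoptosis, were examined in irradiated HK-2 cells. The 10 members were the rows with an exactly matching gene name among the 38648 genes and gene copies listed per library. They comprised 3 survival genes (BCL2, BCL2L1 and MCL1), 2 effectors (BAX and BAK1) and 5 BH3-only genes (BBC3, PMAIP1, BID, BCL2L11 and BAD). HK-2 is a line of human proximal tubular cells immortalized with viral oncogenes. Cells transduced with a negative control lentivirus (IR+NC-LV, n = 3 libraries) or with a lentivirus for PRDM16, a zinc finger transcription factor (IR+PR-LV, n = 3 libraries), all received a single X-ray dose of 8 Gy and were harvested on day 7. Transduced cells were selected with puromycin, as the study's methods describe, and every library came from irradiated cells, so the effect of irradiation itself was not measured here. Nothing in the labels says whether the 3 libraries of a group came from separate cultures, and p-values therefore measure the spread between these libraries, which may be technical.

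Survival members bind and hold the other classes in check. BAX and BAK1, once released, assemble into pores through which cytochrome c leaves the mitochondrion and caspases are activated. BH3-only proteins sense damage, stress or growth factor loss, and either occupy the groove of the survival proteins or engage BAX and BAK1 directly. Senescent cells are known for their resistance to apoptosis, and survival members of this family are the targets of several drugs that remove such cells.

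All 10 members share the BH3 segment, the short helix through which they bind one another, and its core is shown because the members have it in common. The core was searched as 8 residues: leucine, 2 of any kind, a hydrophobic residue, then glycine, alanine or serine, then aspartate, 1 of any kind and a further hydrophobic residue. This pattern was written with the known BH3 segments in mind and is a description. For each of the 10 members the longest principal transcript that holds the pattern was used, so its presence there was set by that choice. It occurred once in each. In the longest coding transcript of each gene, chosen without regard to the pattern, it occurred in 5.45% of the 19623 coding genes searched. These figures follow different rules and cannot be compared directly. The 24 coding bases are printed 5′ to 3′ on the coding strand from GENCODE release 29 (GRCh38), with the leucine and aspartate codons in capitals.
BCL2, chr18:63318355-63318378, minus strand, exon 1: CTCcgccaggccggcGACgacttc
BCL2L1, chr20:31721928-31721951, minus strand, exon 1: CTGagggaggcaggcGACgagttt
MCL1, chr1:150578871-150578894, minus strand, exon 1: TTAcgacgggttgggGATggcgtg
BAX, chr19:48955787-48955810, plus strand, exon 3: CTCaagcgcatcgggGACgaactg
BAK1, chr6:33575393-33575416, minus strand, exon 4: CTCgccatcatcgggGACgacatc
BBC3, chr19:47226585-47226608, minus strand, exon 3: CTGcggcggatggcgGACgacctc
PMAIP1, chr18:59902673-59902696, plus strand, exon 2: CTCaggagatttggaGACaaactg
BID, chr22:17739421-17739444, minus strand, exon 4: CTCgcccaggtcgggGACagcatg
BCL2L11, chr2:111150103-111150126, plus strand, exon 4: TTGcggcgtattggaGACgagttt
BAD, chr11:64271628-64271651, minus strand, exon 2: CTCcggaggatgagtGACgagttt
Each of these stretches lies in coding sequence, within 1 exon and inside the exons over which the reads were counted. Between pairs of members, 17 of the 24 bases at most were identical, as in BCL2 with BCL2L1 and in BCL2L11 with BAD. The aspartate codon was GAC in every member but MCL1, which has GAT, and the residue before it is coded as serine in BAD and as alanine in BBC3, where the others have glycine.

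Between 13407074 and 28540041 reads were counted per library, with the shallowest library in IR+NC-LV (replicate 3) and the deepest in IR+PR-LV (replicate 2). PRDM16 had 3 counts in the IR+NC-LV libraries together and 32 in the IR+PR-LV libraries. With 0 to 2 counts per library in IR+NC-LV and 8 to 14 in IR+PR-LV, it was barely detected and was not tested. Of 7 epithelial markers 6 had a mean of at least 1 TPM (a level in which counts are divided by gene length and scaled to a fixed sum), with summed levels of 2099.8 to 2189.7 TPM in IR+NC-LV against 2080.8 to 2585.7 TPM in IR+PR-LV. The marker below 1 TPM was CDH1 (mean 0.42 TPM). Most of the epithelial sum came from KRT8, KRT18 and KRT19 (means 834, 632 and 553 TPM). Of 7 markers of the mature proximal tubule 2 had a mean of at least 1 TPM, with summed levels of 76.4 to 80.1 TPM in IR+NC-LV against 59.6 to 78.5 TPM in IR+PR-LV. Most of this sum came from GGT1 (mean 69.9 TPM), while the endocytic receptor LRP2 had a mean of 0.00468 TPM. The summed level of 4 leukocyte markers stayed between 3.36 and 5.46 TPM that of 3 endothelial markers between 0.319 and 0.544 TPM, and that of 3 fibroblast markers between 9.55 and 14.3 TPM, mostly from COL1A1 (mean 10.5 TPM). In these bulk libraries a loss of cells of one kind and less RNA per cell cannot be told apart.

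Counts were compared with edgeR's quasi-likelihood test over the 15340 genes that passed its filter on low counts, all 10 members included, with Benjamini-Hochberg adjustment over all of these genes. No member passed the threshold of 0.05 (0 of 10), where 0.0652% of all tested genes did (0.0196% with a higher and 0.0456% with a lower count in IR+PR-LV). With the threshold set at an unadjusted p under 0.05 there were also 0 members, against 10.5% of the tested genes. DESeq2 on the same genes also called 0 of 10 members, where it called 1.13% of the 15336 genes to which it gave an adjusted p. Log2 fold changes of IR+PR-LV over IR+NC-LV lay between -0.22 (BBC3) and 0.15 (PMAIP1), with 5 positive and 5 negative and a median of -0.04, while the median of all tested genes was 0.0044. The 95% interval of the difference included 0 for all 10 members and stayed within 0.5 of 0 on the log2 scale for 9 of them. BBC3, with the fewest counts, was the exception.

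**Figure D1:**
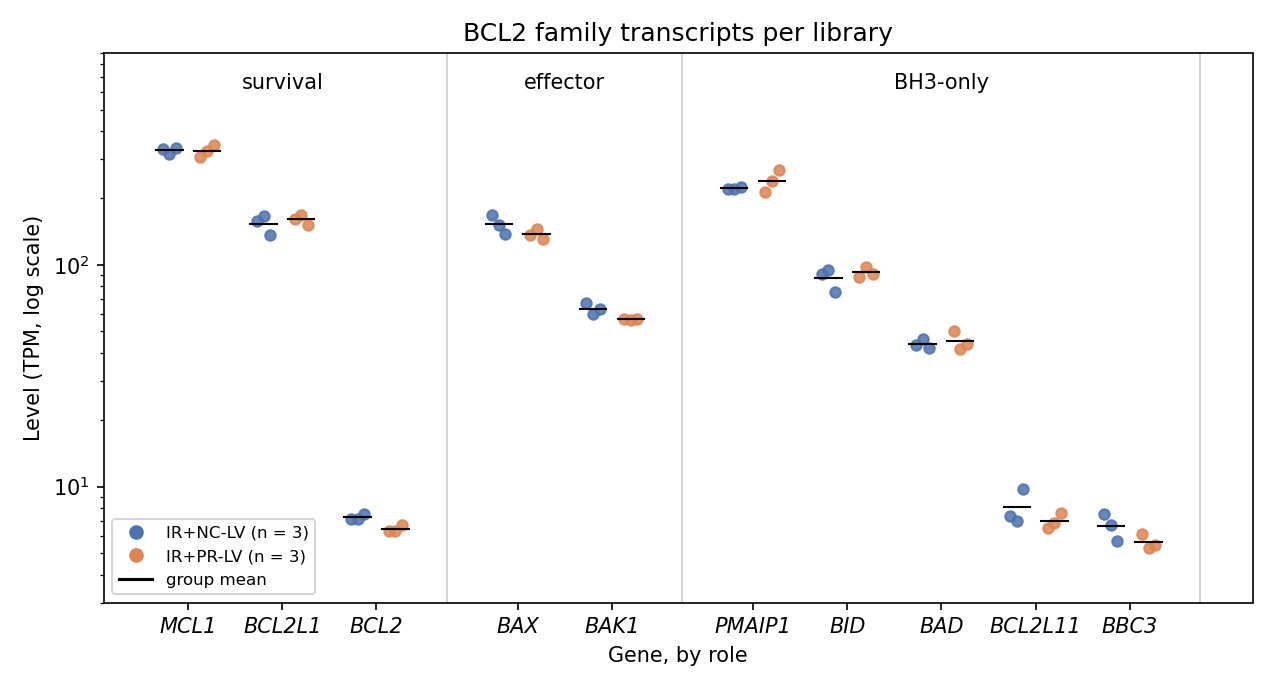
Level of each BCL2 family member in TPM (vertical axis, log scale) in the 3 IR+NC-LV and 3 IR+PR-LV libraries, ordered by role along the horizontal axis, with 1 point per library and a bar at the group mean. MCL1 and PMAIP1 are the highest and BCL2, BCL2L11 and BBC3 the lowest, and the groups of libraries are apart only for BCL2 and BAK1.

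Among the survival genes, MCL1 was the most abundant transcript. MCL1 (chr1:150574558-150579610, minus strand), which codes for a short-lived protein that restrains BAK1 and BAX, was measured at 334, 316 and 335 TPM in the IR+NC-LV libraries and at 307, 324 and 347 TPM in the IR+PR-LV libraries. The groups overlapped fully, and the lowest and the highest level were both found in IR+PR-LV. In CPM, counts scaled to library size by the TMM method, it had 392 ± 12.9 CPM in IR+NC-LV against 400.3 ± 21.7 CPM in IR+PR-LV (mean ± SD of 3 libraries each). Its log2 fold change was 0.03 (95% interval -0.11 to 0.17, adjusted p = 0.890 from edgeR), the narrowest interval among the members.

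BCL2L1 (chr20:31664452-31723963, minus strand), which codes for the survival protein Bcl-xL, had 157, 165 and 137 TPM in IR+NC-LV against 160.4, 168 and 151 TPM in IR+PR-LV. Replicate 3 of IR+NC-LV stood below the other 5 libraries. IR+PR-LV over IR+NC-LV, BCL2L1 had a log2 fold change of 0.10 (95% interval -0.13 to 0.32, adjusted p = 0.769 from edgeR), and it was -0.0034 without that library. Of the exon bases of BCL2L1, 35.0% overlap ABALON on the opposite strand, a listed RNA with 643 counts over the 6 libraries. The strand setting of the counting is not given in the sources used here, so reads of the pair cannot be assigned with certainty. A short splice form of BCL2L1 promotes death, and counts per gene do not separate it from the long form. The same holds for splice forms of MCL1 and BCL2L11.

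BCL2 (chr18:63123346-63320280, minus strand), the founding member of the family, was a rare transcript. Its level was 7.13, 7.16 and 7.48 TPM in IR+NC-LV against 6.30, 6.32 and 6.71 TPM in IR+PR-LV. Every IR+PR-LV library lay below every IR+NC-LV library, by a gap smaller than 0.5 TPM. In normalized counts BCL2 had 23.5 ± 0.510 CPM in IR+NC-LV against 21.4 ± 0.549 CPM in IR+PR-LV (mean ± SD of 3 libraries each). This gave a log2 fold change of -0.13 (95% interval -0.31 to 0.04, adjusted p = 0.580 from edgeR), so that the separation did not pass the test. In the 6 fits without a library it stayed between -0.15 and -0.12.

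Both effectors had lower mean levels in IR+PR-LV, by amounts that did not pass the test. BAX (chr19:48954825-48961798, plus strand), which moves from the cytosol to the mitochondrion on activation, had 167, 151 and 138 TPM in IR+NC-LV against 136, 144 and 131 TPM in IR+PR-LV. The groups overlapped, since in TPM IR+NC-LV replicate 3 lay within the range of IR+PR-LV. For BAX the log2 fold change was -0.12 (95% interval -0.34 to 0.11, adjusted p = 0.719 from edgeR). It was -0.21 without IR+NC-LV replicate 3 (unadjusted p = 0.0284) and -0.04 without IR+NC-LV replicate 1, with adjusted p-values of 0.488 to 0.962 from edgeR over the 6 fits that each left out 1 library. In the fit without IR+NC-LV replicate 3, 1422 of 15661 tested genes had an unadjusted p under 0.05.

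BAK1 (chr6:33572552-33580296, minus strand), which resides in the mitochondrial membrane, had 66.9, 59.8 and 63.1 TPM in IR+NC-LV against 57.1, 56.2 and 57.0 TPM in IR+PR-LV. The 3 IR+PR-LV libraries were nearly equal, with 40.6 ± 0.348 CPM (SD, n = 3), and all lay below the IR+NC-LV libraries at 44.0 ± 2.94 CPM (SD, n = 3). A log2 fold change of -0.12 was fitted (95% interval -0.29 to 0.05, adjusted p = 0.618 from edgeR). Of 2113 stretches of 100 bases in its longest annotated transcript, 82 also occur in the pseudogene BAK1P1. BCL2 and BAK1 were the 2 members of 10 whose groups of libraries did not overlap, both lower in IR+PR-LV. Over all tested genes 9.54% were separated in this direction and 7.46% in the other.

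**Figure D2:**
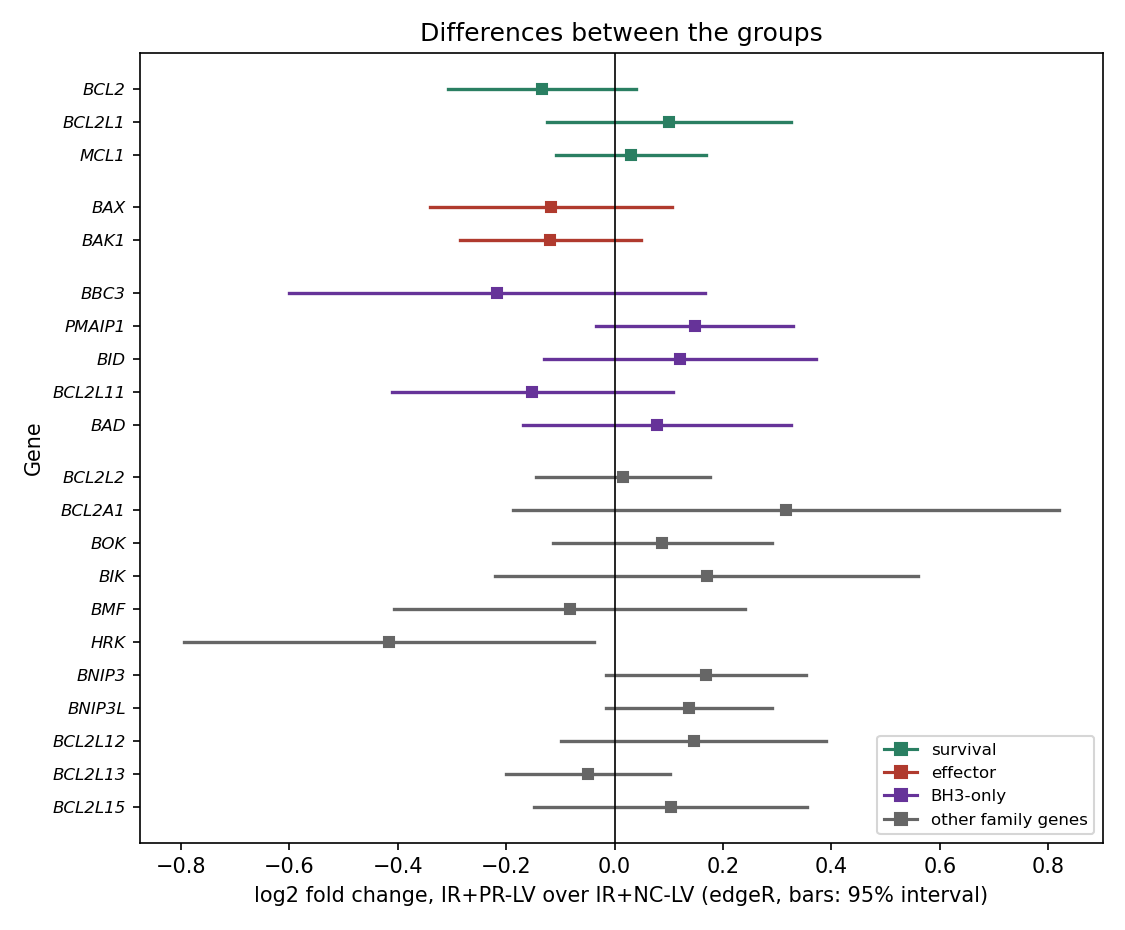
Log2 fold change of IR+PR-LV over IR+NC-LV from edgeR (squares) with its 95% interval (bars) for the 10 members by role and for the 11 tested genes among other family genes. The intervals of all 10 members cross 0, and that of HRK among the other genes does not.

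PMAIP1 was the most abundant transcript among the BH3-only members. PMAIP1 (chr18:59899996-59904305, plus strand) codes for NOXA, which binds MCL1 in particular and speeds its breakdown. It had 220.1, 219.8 and 224 TPM in IR+NC-LV, a spread of 2.09 TPM (SD), and 212, 238 and 266 TPM in IR+PR-LV. In TPM the lowest and the highest library both belonged to IR+PR-LV. In normalized counts IR+NC-LV replicate 3 was the lowest, at 273 CPM beside 280 CPM in IR+PR-LV replicate 1. PMAIP1 had a log2 fold change of 0.15 (95% interval -0.03 to 0.33, adjusted p = 0.559 from edgeR), the smallest p of the 10 members (unadjusted 0.0982). Without IR+PR-LV replicate 1 it was 0.23 (unadjusted p = 0.00638, adjusted p = 0.169), and adjusted p-values over the 6 such edgeR fits lay between 0.169 and 0.870. In the fit without IR+PR-LV replicate 1, 2586 of 15784 tested genes had an unadjusted p under 0.05.

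BID (chr22:17734138-17774665, minus strand), the link from death receptors to mitochondria after cleavage by caspase 8, had 91.0, 94.3 and 75.4 TPM in IR+NC-LV against 88.2, 98.0 and 91.2 TPM in IR+PR-LV. As for BCL2L1, IR+NC-LV replicate 3 was the low library. The log2 fold change of 0.12 (95% interval -0.13 to 0.37, adjusted p = 0.743 from edgeR) was 0.0022 without it.

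BAD (chr11:64269828-64284704, minus strand), which is held inactive by growth factor signalling and binds BCL2 and Bcl-xL, had 43.2, 46.1 and 42.0 TPM in IR+NC-LV against 50.3, 41.8 and 43.7 TPM in IR+PR-LV. Replicate 1 of IR+PR-LV was the highest of the 6 libraries, and the others overlapped. Its fitted difference on the log2 scale was 0.08 (95% interval -0.17 to 0.33, adjusted p = 0.838 from edgeR) and -0.0033 without that library. Of the 100-base stretches of its longest transcript, 82.6% occur in no other annotated gene, the lowest share after BCL2L1 (69.0%), and the rest occur in GPR137.

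BCL2L11 (chr2:111120914-111168445, plus strand) codes for BIM, which binds every survival member. Its level was 7.37, 7.01 and 9.77 TPM in IR+NC-LV against 6.53, 6.86 and 7.59 TPM in IR+PR-LV. Here IR+NC-LV replicate 3 was the highest library, the opposite of its place for BCL2L1 and BID. The log2 fold change was -0.15 (95% interval -0.41 to 0.11, adjusted p = 0.690 from edgeR) and -0.04 without that library. The share of such unique stretches was 87.7%, and the rest are found in MIR4435-2HG.

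BBC3 (chr19:47220822-47232998, minus strand) codes for PUMA, a main mediator of death after DNA damage, and had 54 to 110 counts per library. Its level was 7.51, 6.70 and 5.70 TPM in IR+NC-LV against 6.12, 5.27 and 5.44 TPM in IR+PR-LV. The groups overlapped at IR+NC-LV replicate 3. The log2 fold change of -0.22 (95% interval -0.60 to 0.17, adjusted p = 0.698 from edgeR) was the largest in size among the members and the least certain. It was -0.34 without IR+NC-LV replicate 3 and -0.11 without IR+NC-LV replicate 1.

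Levels of different genes can be compared in TPM, which accounts for gene length, with the reservation that the length used is that of all exons of a gene. Averaged over the 6 libraries the order was MCL1 (327 TPM), PMAIP1 (229.9), BCL2L1 (156), BAX (145), BID (89.7), BAK1 (60.0), BAD (44.5), BCL2L11 (7.52), BCL2 (6.85) and BBC3 (6.12). The place of BCL2L1 above BAX held in 1 of 3 IR+NC-LV libraries, where their ranges overlapped, and in 3 of 3 IR+PR-LV libraries, where they did not (151 to 168 TPM beside 131 to 144 TPM). BCL2 was above BBC3 in 2 of 3 and 3 of 3 libraries, with ranges that also overlapped in IR+NC-LV alone. For BCL2L11 and BCL2 the order held in 2 of 3 and 3 of 3 libraries and the ranges overlapped in both groups, so this pair did not differ beyond the spread between libraries. The other neighbours kept their order in 6 of 6 libraries. The step from BAD to BCL2L11 was the largest, 4.30 to 7.70 times within a library. MCL1 exceeded 98.3% of the genes with any count and BBC3 64.0%.

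Among the 10 members, each role was carried mainly by 1 transcript. Other family genes with these roles, such as BCL2L2 (33.6 TPM), BOK (33.5 TPM) and BIK (31.5 TPM), are outside the shares and sums given here. So are the family genes BNIP3 (588 TPM) and BNIP3L (184 TPM). The level of BNIP3 alone was above the sum of the BH3-only members, which averaged 367 TPM in IR+NC-LV and 389 TPM in IR+PR-LV. MCL1 made up 67.2% ± 2.57 of the survival TPM in IR+NC-LV against 66.2% ± 2.19 in IR+PR-LV (mean ± SD of 3 libraries each). BCL2 contributed 1.49% ± 0.0672 and 1.31% ± 0.0355, and was exceeded by MCL1 44.2 to 46.8 times within the IR+NC-LV libraries and 48.8 to 51.8 times within the IR+PR-LV libraries. BAX held 70.6% ± 1.71 and 70.7% ± 1.18 of the effector TPM, and the mean log2 ratio of BAX to BAK1 differed by 0.0064 between the groups. PMAIP1 held 60.4% ± 2.07 and 61.2% ± 2.95 of the BH3-only TPM, followed by BID with 23.7% ± 2.20 and 23.8% ± 1.59.

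The balance between roles was then taken as the ratio of TPM summed over the members of each role within each library. These ratios are given without a test, because the members were chosen with earlier results of these data known. Several of them share a sum, so their separations between the groups are not independent. Among single tested genes, 17.0% had groups of libraries that did not overlap, in either direction, and no such share was taken for ratios. Survival transcripts summed to 488 ± 9.13 TPM in IR+NC-LV against 493 ± 16.7 TPM in IR+PR-LV, effectors to 216 ± 17.0 and 194 ± 6.41 TPM, and BH3-only transcripts to 367 ± 9.04 and 389 ± 25.6 TPM (mean ± SD of 3 libraries each). The ratio of survival to effector transcripts was 2.12, 2.31 and 2.38 in IR+NC-LV against 2.46, 2.49 and 2.69 in IR+PR-LV. All IR+PR-LV libraries were above all IR+NC-LV libraries, by a difference of 0.16 in the mean log2 ratio, with values of 0.12 to 0.20 when single libraries were omitted.

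The ratio of survival to BH3-only transcripts moved the other way. It was 1.35, 1.31 and 1.34 in IR+NC-LV against 1.31, 1.28 and 1.22 in IR+PR-LV, a difference of -0.07 in the mean log2 ratio, and the nearest libraries of the 2 groups differed only in the fourth digit. The ratio of effector to BH3-only transcripts was 0.634, 0.565 and 0.564 in IR+NC-LV against 0.531, 0.514 and 0.454 in IR+PR-LV, also without overlap. BCL2L1 relative to the effectors was 0.668, 0.781 and 0.680 in IR+NC-LV against 0.832, 0.838 and 0.806 in IR+PR-LV. The same ratio overlapped between the groups for the other survival genes, with 1.42 to 1.67 against 1.59 to 1.85 for MCL1 and 0.0304 to 0.0372 against 0.0315 to 0.0357 for BCL2, whose mean log2 ratio differed by -0.02. For MCL1 relative to PMAIP1, a protein pair that binds directly, the ratio was 1.52, 1.44 and 1.50 in IR+NC-LV against 1.45, 1.36 and 1.31 in IR+PR-LV, and the groups overlapped.

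**Figure D3:**
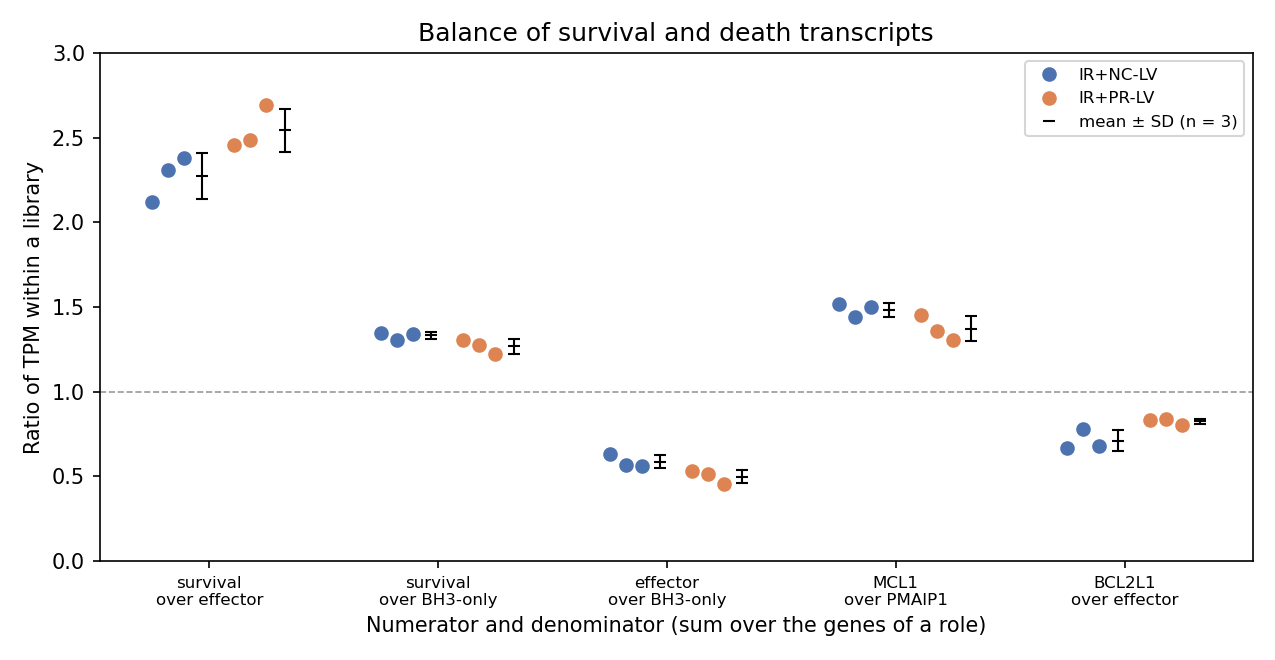
Ratio of TPM within each library (vertical axis, linear from 0) for 5 balances of the family, with 1 point per library and the mean ± SD of each group of 3 beside it. Survival over effector transcripts sits between 2.12 and 2.38 in IR+NC-LV against between 2.46 and 2.69 in IR+PR-LV, and survival over BH3-only transcripts is slightly lower in IR+PR-LV.

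The members did not vary alike from library to library. IR+NC-LV replicate 3, the shallowest library, had the lowest normalized count of the 6 for 6 members (BCL2L1, BAX, BBC3, PMAIP1, BID and BAD) and the highest for BCL2L11, where it was the lowest for 24.0% and the highest for 24.1% of all tested genes. IR+PR-LV replicate 1 was the lowest for BCL2, MCL1 and BCL2L11. Within IR+NC-LV the SD was smallest relative to the mean for BCL2 (2.17%) and largest for BBC3 (17.1%). Within IR+PR-LV it was smallest for BAK1 (0.858%) and largest for PMAIP1 (10.6%).

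Other genes of the family were looked at beside the members. Of 13 such genes 11 were tested, and 0 passed the threshold, with 8 positive and 3 negative log2 fold changes and a median of 0.10. BNIP3 and BNIP3L, which mark mitochondria for removal by autophagy, were the most abundant at 588 and 184 TPM on average, and their log2 fold changes were 0.17 and 0.14 (adjusted p = 0.506 and 0.515 from edgeR). BCL2L2, a further survival gene, was at 33.6 TPM with a log2 fold change of 0.02, and 21.2% of its exon bases are shared with the read-through gene BCL2L2-PABPN1. BCL2A1, a survival gene induced by NF-kB, was at 22.1 TPM with a log2 fold change of 0.32 (95% interval -0.19 to 0.82).

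HRK, a BH3-only gene best known from neurons, was the only one of the 11 with an unadjusted p under 0.05. Of all tested genes, 10.5% had such a p. HRK had 4.35, 5.70 and 5.76 CPM in IR+NC-LV against 4.29, 3.58 and 4.02 CPM in IR+PR-LV, without overlap. Of all tested genes, 9.54% were lower in IR+PR-LV without overlap. The log2 fold change of -0.42 (95% interval -0.79 to -0.04) had an adjusted p = 0.435 from edgeR. The effector-like gene BOK (33.5 TPM) had a log2 fold change of 0.09, and the BH3-only genes BIK (31.5 TPM) and BMF (12.9 TPM) had values of 0.17 and -0.08. BCL2L12, BCL2L13 and BCL2L15 had log2 fold changes of 0.15, -0.05 and 0.10. BCL2L10 had at most 2 counts in a library and was not tested, nor was BCL2L14.

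Downstream of the family, 15 caspases and mitochondrial death factors were tested, with 0 past the threshold, 11 positive and 4 negative log2 fold changes and a median of 0.06. VDAC1, a channel of the outer mitochondrial membrane, had 357 ± 7.26 CPM in IR+NC-LV against 392 ± 16.7 CPM in IR+PR-LV (mean ± SD of 3 libraries each), a log2 fold change of 0.13 (adjusted p = 0.464 from edgeR). It was the only gene of that list with an unadjusted p under 0.05, beside 10.5% of all tested genes. None of the 7 inhibitors of caspases (median 0.0017), the 8 tested genes of the death receptor arm (median -0.02) or the 4 genes of MCL1 turnover (median -0.02) passed the threshold, and each of these lists had 0 genes at an unadjusted p under 0.05. NAIP, at 0.71 the highest value among the inhibitors, was represented by the most counted of its 3 listed copies (adjusted p = 0.502 from edgeR).

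BBC3, PMAIP1 and BAX belong to the genes that can be induced after DNA damage, and BBC3 and PMAIP1 are also known targets of the ATF4 stress response. Of 9 other damage-response targets 0 passed the threshold, with 3 positive and 6 negative log2 fold changes and a median of -0.11. The nuclease gene AEN (-0.18), ZMAT3 (-0.24) and the cell cycle inhibitor CDKN1A (-0.17) had unadjusted p-values under 0.05 and adjusted p-values of 0.419, 0.437 and 0.453 from edgeR. Of all tested genes, 10.5% had an unadjusted p under 0.05. In the ATF4 arm 1 of 6 genes passed, ATF3, where 0.0652% of all tested genes did. ATF3 had 78.4 ± 18.4 CPM in IR+NC-LV against 30.1 ± 2.01 CPM in IR+PR-LV (mean ± SD of 3 libraries each, log2 fold change -1.38, adjusted p = 0.0173 from edgeR). An unadjusted p under 0.05 was found for 4 of the 6 genes, all lower in IR+PR-LV.

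Over these 6 ATF4 arm genes the median was -0.61, with 5 negative values. The exception was ATF4 itself, with a log2 fold change of 0.04 (adjusted p = 0.882 from edgeR). Of the 6 genes 4 were lower in IR+PR-LV without overlap between the groups of libraries, as were 9.54% of all tested genes. DDIT3, which codes for CHOP, and TRIB3 were among them. Their log2 fold changes were -0.34 and -0.58, and neither passed the threshold (adjusted p = 0.210 and 0.216 from edgeR). For PMAIP1 and BBC3 the corresponding values were 0.15 and -0.22, with intervals that include 0. Whether the BH3-only genes and the ATF4 arm differ in their response was not tested.

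**Figure D4:**
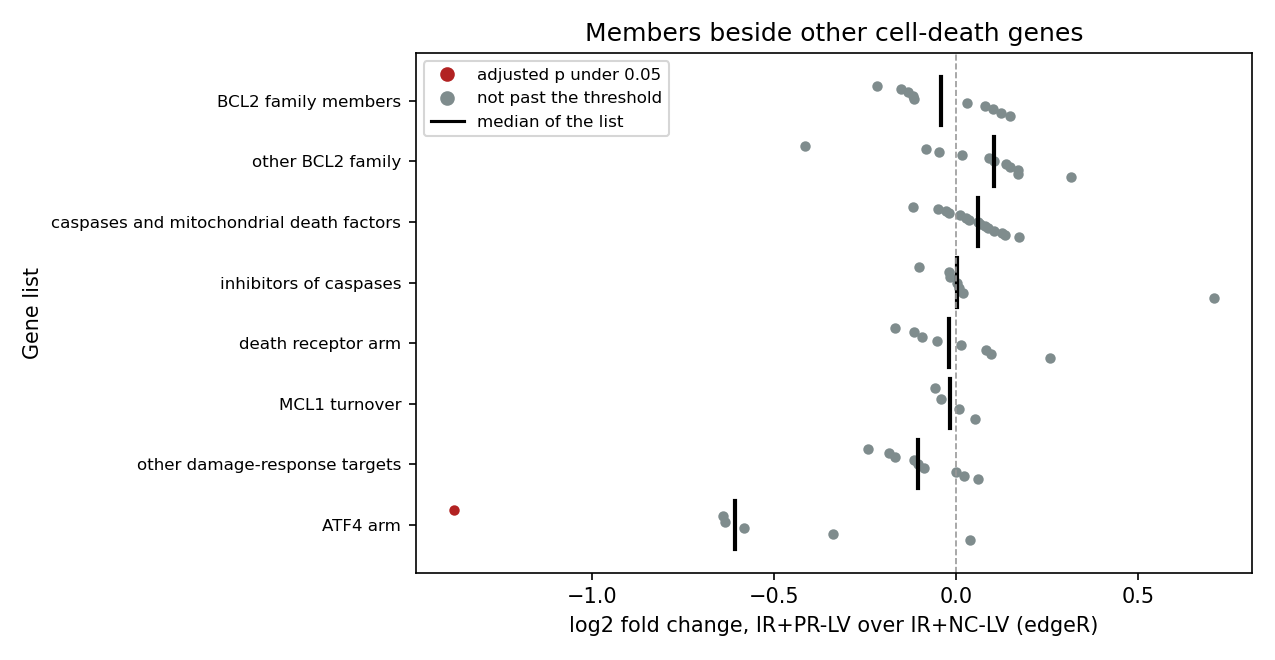
Log2 fold change of IR+PR-LV over IR+NC-LV from edgeR (horizontal axis) for the tested genes of each list (rows), with 1 point per gene and a black line at the median of the list. The members lie between -0.22 and 0.15, and the only gene past the threshold is ATF3 in the ATF4 arm at -1.38.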

How the data were processed

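Bulk RNA-seq of poly(A) RNA was analysed in 6 libraries. The authors filtered reads and deposited, per library, the raw count of reads per gene, with TPM and FPKM values. The submitters' processing notes name featureCounts 2.0.1, DESeq2 1.16.1 and hg38. The aligner and the strand setting are not given in the sources used here. The deposited TPM was the count over the exon length scaled to a fixed sum, and the deposited FPKM was used only as an alternative scale.

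Counts were fitted with edgeR 4.0.16 in R 4.3.3 (filterByExpr at its thresholds of 10 per library and 15 in total, TMM factors of 0.981 to 1.04, glmQLFit and glmQLFTest, no covariate). Intervals at 95% used the standard error and the total degrees of freedom of that fit. DESeq2 1.42.0 on the genes of that fit was an alternative. The procedure was tested on simulated counts in which the changed genes differed by more than any member did here. That test does not show how often differences of the members' size would be found. Levels are deposited TPM, and differences are on TMM-normalized CPM. Only counting error limits a count of 0, at 3 counts of the total, or 0.105 to 0.224 CPM. Coding bases came from GENCODE release 29 (GRCh38).

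The members and gene lists were chosen with earlier results of these data known. Named were the members, the other family genes, and from each other list the genes past the threshold and up to 3 with the smallest unadjusted p under 0.05. NAIP and ATF4 were added after their values were seen. Replicate numbers did not pair the libraries.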

Additional observations from a re-analysis of the deposited data

How the results depend on the processing

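No member of the family passed the threshold under the 8 alternative settings or in the 6 fits without a library (smallest adjusted p 0.169), and no fit of a member outside those that left out a library changed its sign. With one library left out, the sign changed for BCL2L1 (-0.0034, range to 0.18), MCL1 (-0.0072, range to 0.07) and BAD (-0.0033, range to 0.14). The cause was not tested. The number of genes past the threshold over all genes was 10, and it moved to 173 with DESeq2 on the same genes, 168 with DESeq2 on every gene with a count (added after the data were seen), 342 with edgeR without a filter and 3 with the replicate number as a block. With one library left out it lay between 1 (without IR+NC-LV replicate 1, and likewise without IR+PR-LV replicate 3) and 28 (without IR+NC-LV replicate 2), and was 16 without IR+NC-LV replicate 3. The cause of these moves was not tested. The replicate numbers were shared by the labels of both groups, but deviations of same-numbered libraries correlated at only -0.009, 0.051 and 0.071, so that they were not taken as pairs, and the block changed no call of a member. The difference in the log2 ratio of survival to effector transcripts was 0.16 in CPM, and 0.12 to 0.20 with one library left out. FPKM gives the same ratios as TPM by construction, since within a library they differ only by a constant factor, so it is no check. For survival to BH3-only transcripts it was -0.08 in CPM and -0.09 to -0.04 with one library left out. Depth limits BBC3 most, with 54 counts in its lowest library.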
